A study of Homo sapiens with 15 samples.

Results

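The 10 genes described here carry the signal of the interleukin-6 (IL6) cytokine family to its transcription factor in U87MG cells, an established human glioblastoma line. They were the rows of the expression table with the symbols IL6, LIF, IL6ST, OSMR, JAK1, JAK2, TYK2, STAT3, SOCS3 and PIM1, 10 of the 25737 rows, and each symbol was listed once. The 15 libraries fell into 5 groups of 3. The control group, GFP, had received a control lentivirus for 24 h, and the groups ID1, ID2, ID3 and ID4 had received, also for 24 h, lentivirus for overexpression of that member of the ID family, helix-loop-helix proteins without a DNA-binding domain that hold back other helix-loop-helix factors. All groups were grown in medium with serum, the labels name no added cytokine, and the promoter that drives the constructs is not given in the sources used here. Nothing in the labels or methods says whether the 3 libraries of a group came from separate transductions, so the p-values measure only the spread between these libraries.

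In this pathway a cytokine such as IL6 or leukaemia inhibitory factor (LIF) brings together receptor chains that include gp130, the product of IL6ST. The kinases JAK1, JAK2 and TYK2 sit on the inner tail of these chains and phosphorylate STAT3, which then enters the nucleus and switches on genes such as SOCS3, an inhibitor of the JAK kinases, and PIM1, a survival kinase. In glioblastoma, STAT3 is known for its part in stem-like and mesenchymal behaviour. STAT3 activity is set by phosphorylation, which RNA counts do not measure.

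JAK1 RNA was higher and STAT3 RNA lower than in GFP in all 4 ID groups. JAK1 was raised 1.20-fold to 1.43-fold and STAT3 fell to between 0.790 and 0.874 of the control level. The STAT3 call in ID1 was lost in 6 of 12 other settings, and the JAK1 and STAT3 calls in ID4 in 1 each. PIM1 was higher than in GFP in the ID4 group, and its values in the other 3 ID groups passed neither the test against GFP nor that against ID4. IL6ST, OSMR, JAK2 and TYK2 passed no comparison of 2 groups, IL6 and LIF were almost silent, and SOCS3, the tested member that varied most within groups, passed no comparison with GFP. The 4 comparisons with GFP share the same 3 control libraries and are therefore not independent of each other.

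Libraries were made with a kit that reads the 3′ ends of mRNA, so that 1 read stands for about 1 transcript end whatever the length of the gene. Total counts per library ranged from 11089044 to 15148979, at which 3 counts, the level taken as the detection limit, correspond to 0.198 to 0.271 counts per 1000000 counts of the library (CPM). No 2 libraries of a group agreed within sampling noise, and ID2 replicate 3 stood apart from the other libraries of its group over all tested genes, with a chi-square per gene of 10.7 and 11.3 against them where all other pairs gave 2.24 to 5.19. The ID transcripts followed the labels in part. ID4 RNA averaged 223 CPM in the ID4 group and 0.0787 CPM in GFP. ID3 RNA was 313 CPM in the libraries labelled ID3 against 220.5 CPM in GFP, but it was also higher in those labelled ID2 (287.2 CPM), with log2 fold changes of 0.49 and 0.40 (edgeR adjusted p = 9.91e-06 and 7.18e-05). ID1 RNA was 249.7 CPM in the libraries labelled ID1 against 344 CPM in GFP. ID2 RNA was lower than in GFP (85.7 CPM) in all 4 ID groups, at 34.3, 44.9, 46.7 and 35.9 CPM in ID1 to ID4. Whether the constructs carry the 3′ end that this assay reads is not given in the sources used here, so the labels of the ID1 and ID2 groups could not be checked in this way, and that of ID3 only weakly. Mesenchymal glioma markers (VIM, CD44, NES, FN1, TNC) were detected in every library. Their summed level was 10100 to 10910 CPM in GFP, 18580 to 19660 CPM in ID2 and up to 19690 CPM in ID3. Most of it was FN1, which averaged 6088 CPM in GFP, 13990 in ID2 and 14240 in ID3. In ID3, VIM and TNC also averaged higher than in GFP, but CD44 (568 against 595 CPM) and NES (19.8 against 24.2 CPM) lower. In ID2, VIM and TNC averaged higher too, NES was level (24.3 CPM) and CD44 lower (510 CPM). The astrocyte list summed to at most 0.449 CPM, with AQP4 at 0. A list of 3 neuronal markers summed to 9.53 to 13.4 CPM in GFP and 23.5 to 35.6 CPM in ID2. Most of it was SNAP25 (8.40 and 27.8 CPM on average), while SYT1 averaged lower in ID2 (2.87 against 3.25 CPM). RBFOX3 was at or under the detection limit. A list of 4 oligodendrocyte-lineage markers summed to 3.80 to 5.11 CPM in GFP, at most 1.46 CPM in ID2 and 0.898 to 2.29 CPM in ID3. Most of it was PDGFRA, with OLIG1 and SOX10 at or under the limit, while OLIG2 averaged higher in ID2 (0.419 against 0.186 CPM). The leukocyte and microglia list summed to 3.15 to 4.86 CPM in GFP and 6.12 to 6.36 CPM in ID3, mostly CSF1R (3.27 and 5.65 CPM on average). The endothelium list summed to at most 0.767 CPM. Their part in the results below was not tested. In bulk RNA, fewer cells that express a gene and less RNA per cell cannot be told apart.

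These 3 promoter stretches are shown because they belong to the kinase and the transcription factor that moved and to the founding cytokine. Each is the 250 bases before an annotated start, 5′ to 3′ on the strand of the gene. The IL6 (chr7:22726950-22727199, plus strand), JAK1 (chr1:64966550-64966799, minus strand, 1 of 3 RefSeq starts) and STAT3 (chr17:42388443-42388692, minus strand) stretches are from RefSeq in build GRCh38.p14. Capitals mark part of a kappa B site, GGANTTTCC, in IL6.
IL6: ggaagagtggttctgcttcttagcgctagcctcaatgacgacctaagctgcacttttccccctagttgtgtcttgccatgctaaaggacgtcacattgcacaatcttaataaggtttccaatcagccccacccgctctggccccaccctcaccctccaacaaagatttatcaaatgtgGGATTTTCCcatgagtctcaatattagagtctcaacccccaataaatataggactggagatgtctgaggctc
JAK1: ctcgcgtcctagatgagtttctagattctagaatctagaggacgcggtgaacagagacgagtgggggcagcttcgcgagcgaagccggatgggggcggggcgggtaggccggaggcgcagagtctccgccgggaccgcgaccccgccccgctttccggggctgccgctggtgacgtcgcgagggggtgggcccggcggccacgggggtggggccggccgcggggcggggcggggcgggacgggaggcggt
STAT3: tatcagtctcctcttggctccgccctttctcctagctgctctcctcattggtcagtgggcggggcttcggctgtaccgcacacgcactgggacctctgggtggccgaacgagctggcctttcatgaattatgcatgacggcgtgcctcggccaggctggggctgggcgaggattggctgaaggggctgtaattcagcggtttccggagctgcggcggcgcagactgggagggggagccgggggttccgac
Motifs were searched on both strands in the 300 bases from 250 before to 50 after each start. The IL6 stretch held GGATTTTCC with its first base at -72. RefSeq windows of 8 of the 10 genes, 13 windows in all, were searched. None of these 13 held the STAT motif TTCNNNGAA, which 7.66% of all 34943 RefSeq windows hold, and 1 held GGANTTTCC, which 1.65% hold. The AP-1 motif TGANTCA was found in 1 window, that of OSMR, against 7.72% of all windows. The E-box CANNTG, the core that many helix-loop-helix factors bind, was found in 10 of the 13 windows and in 68.7% of all windows. The STAT3 stretch held none of the 4 motifs, nor did the JAK1 stretch shown, while the windows of the other 2 JAK1 starts each held 1 E-box (CACATG at 6 and CATATG at -143). A match of letters is a description of the sequence and not a binding site.

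**Figure D1:**
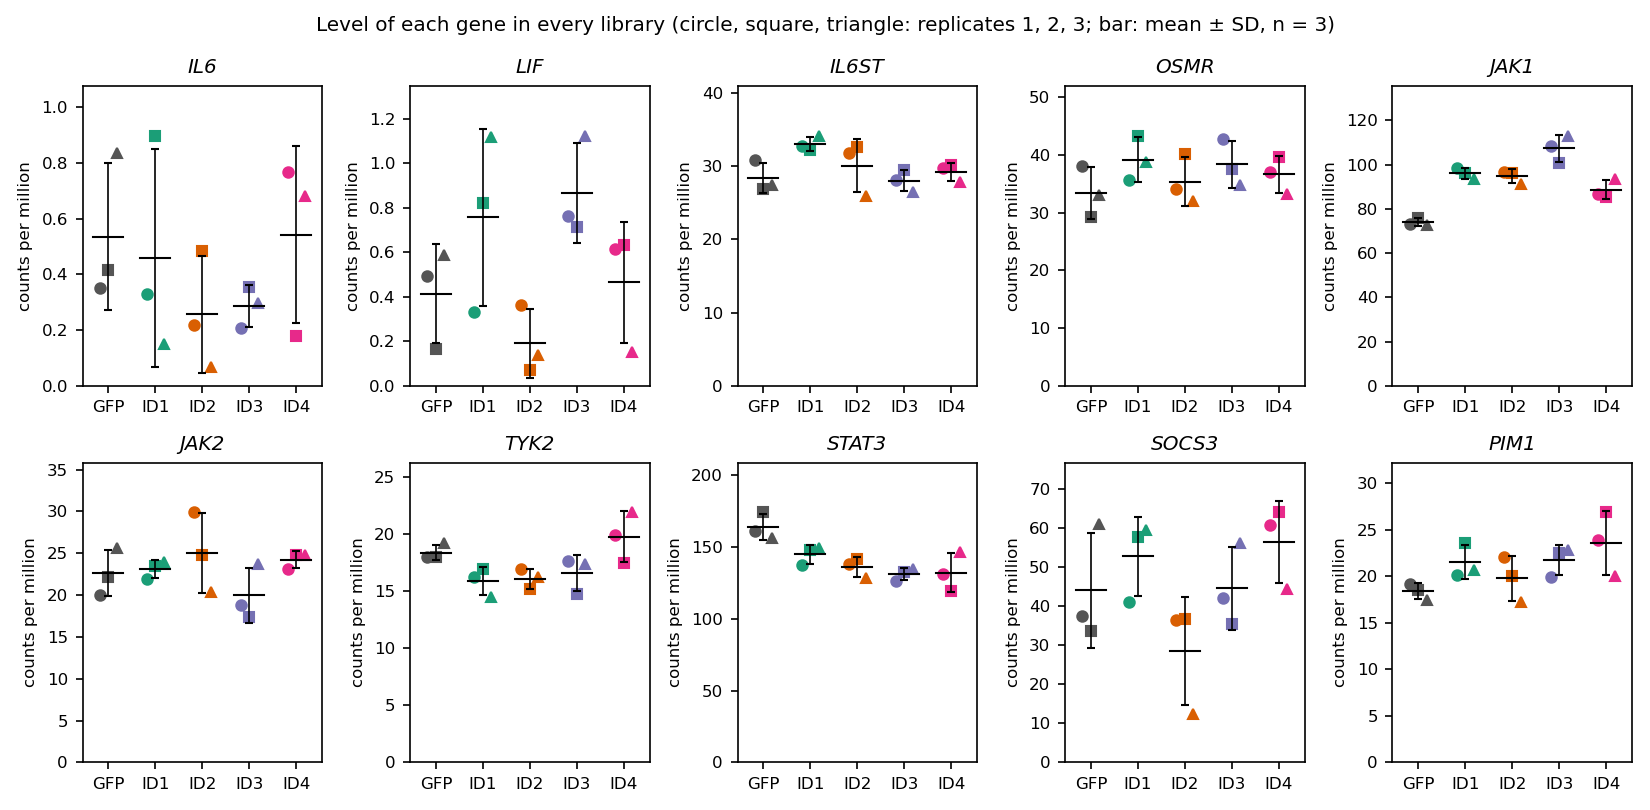
Level of the 10 genes in CPM in every library (circle, square and triangle for replicates 1, 2 and 3) by group, with the mean and SD of 3 libraries as bars, each panel on its own axis from 0. The 3 GFP libraries lie below all 12 ID libraries for JAK1, as for 8.66% of the tested genes, and above all 12 for STAT3, as for 6.15%. ID2 replicate 3 is the lowest SOCS3 value at 12.4 CPM.

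Both ligands were near the detection limit. IL6, the cytokine that gives the family its name, gave 5, 5 and 10 counts in the GFP libraries, 5, 12 and 2 in ID1, 3, 7 and 1 in ID2, 3, 5 and 4 in ID3 and 10, 2 and 9 in ID4. LIF, which signals through gp130 and the LIF receptor, gave 7, 2 and 7 counts in GFP, 5, 11 and 15 in ID1, 5, 1 and 2 in ID2, 11, 10 and 15 in ID3 and 8, 7 and 2 in ID4. The ranges of all groups overlapped those of GFP for IL6, and for LIF all 3 ID3 libraries lay above every GFP and every ID2 library. For such gaps between groups of 3 libraries, here and below, the share of all tested genes is not given, and nothing is read from them. Group means were 0.257 to 0.543 CPM for IL6 and 0.191 to 0.865 CPM for LIF. Neither gene reached the level above which genes were tested, and 8 of the 10 genes were tested. When all 20253 rows with at least 1 count were fitted, IL6 differed in no comparison (edgeR adjusted p 0.345 to 1 in all 4 comparisons with GFP). In that fit LIF was higher in ID1 than in ID2 (log2 difference 1.90 ± 0.64 SE, edgeR adjusted p = 0.0274) and lower in ID2 than in ID3 (log2 difference -2.11 ± 0.63, edgeR adjusted p = 0.0108), on sums of 8 counts in ID2, 31 in ID1 and 36 in ID3. That fit drew the spread of every gene to the common trend and so left out the extra spread of single genes.

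The receptor chains were expressed at even levels. IL6ST, whose product gp130 is the shared signalling chain, stood at 30.8, 26.9 and 27.5 CPM in GFP, 32.7, 32.2 and 34.1 in ID1, 31.8, 32.5 and 25.9 in ID2, 28.1, 29.5 and 26.5 in ID3 and 29.7, 30.1 and 27.8 in ID4. The ID1 libraries all lay above the GFP libraries, and the ranges of the other groups overlapped with GFP. The log2 fold change in ID1 was 0.20 ± 0.09 (SE, 95% interval before adjustment 0.02 to 0.38, edgeR adjusted p = 0.104), and the others lay between -0.04 and 0.10. OSMR, the oncostatin M chain that pairs with gp130, stood at 38.0, 29.2 and 33.0 CPM in GFP, 35.6, 43.3 and 38.7 in ID1, 34.0, 40.1 and 32.03 in ID2, 42.8, 37.6 and 34.7 in ID3 and 37.1, 39.6 and 33.2 in ID4. Every ID group overlapped with GFP. All 4 log2 fold changes were above 0 (0.10 to 0.21, SE 0.10 to 0.11), with edgeR adjusted p from 0.165 to 0.512. The largest upper limit of the 95% intervals before adjustment was 0.43, in ID1. The 3′ end of OSMR overlaps that of RICTOR on the other strand, and whether counting used strand is not given. RICTOR itself passed no comparison with GFP (log2 fold changes -0.16 to 0.25).

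JAK1, the kinase that gp130 depends on most, was the member with the clearest change. Its levels were 73.2, 76.0 and 72.7 CPM in GFP, 98.6, 96.0 and 93.3 in ID1, 96.9, 96.0 and 91.0 in ID2, 108.3, 100.8 and 112.9 in ID3 and 86.9, 85.4 and 93.5 in ID4. All 12 ID libraries lay above all 3 GFP libraries, as was the case for 8.66% of the tested genes. Group means in CPM rose from 74.0 ± 1.8 (SD, n = 3) in GFP through 88.6 ± 4.3 in ID4, 94.7 ± 3.1 in ID2 and 96.0 ± 2.6 in ID1 to 107.3 ± 6.1 in ID3. ID4, ID2 and ID1 overlapped in this order, while GFP below them and ID3 above them did not overlap with their neighbour. The log2 fold change against GFP was 0.36 ± 0.06 (SE) in ID1 (edgeR adjusted p = 8.94e-05), 0.37 ± 0.06 in ID2 (3.27e-05), 0.52 ± 0.06 in ID3 (6.83e-07) and 0.26 ± 0.06 in ID4 (0.00279). Between ID groups, JAK1 was higher in ID3 than in ID4 by 0.26 ± 0.06 on the log2 scale (edgeR adjusted p = 0.00579). This difference missed the threshold when all libraries numbered replicate 1 or replicate 2 were left out (edgeR adjusted p = 0.123 and 0.0803), and the ID4 rise did so without those numbered 1 (0.0634). The 3′ end of JAK1 overlaps that of RAVER2 on the other strand. RAVER2 had 14.6 CPM in GFP and log2 fold changes of 0.09 to 0.28, none of which passed the test, and its part in the JAK1 counts was not tested.

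JAK2 and TYK2, the other kinases that gp130 can use, passed no comparison of 2 groups. JAK2 stood at 20.1, 22.2 and 25.6 CPM in GFP, 21.9, 23.5 and 23.9 in ID1, 29.9, 24.8 and 20.4 in ID2, 18.8, 17.4 and 23.7 in ID3 and 23.1, 24.8 and 24.8 in ID4. Each ID group overlapped with GFP. The difference between ID2 and ID3 was the largest (log2 difference 0.36 ± 0.13, edgeR adjusted p = 0.0556). Without the libraries numbered 3, JAK2 was higher in ID2 than in GFP (log2 fold change 0.39, edgeR adjusted p = 0.00819), against 0.16 with all libraries (edgeR adjusted p = 0.340).

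TYK2 stood at 17.96, 17.98 and 19.16 CPM in GFP, 16.2, 16.9 and 14.5 in ID1, 16.9, 15.2 and 16.2 in ID2, 17.6, 14.7 and 17.4 in ID3 and 19.9, 17.5 and 21.9 in ID4. The libraries of ID1, ID2 and ID3 all lay below the GFP libraries, and ID4 overlapped with GFP. None of these groups passed the test against GFP. The log2 fold changes were -0.22, -0.17 and -0.17 in ID1, ID2 and ID3 and 0.11 in ID4 (SE 0.10 each, edgeR adjusted p 0.133 to 0.510). The test over all 5 groups together passed for TYK2 (edgeR adjusted p = 0.0420), with its lowest mean, 15.9 ± 1.3 CPM, in ID1 and its highest, 19.8 ± 2.2 CPM, in ID4. That call held in 5 of 11 other settings (adjusted p 0.0319 to 0.348), and was lost with DESeq2 (0.0519), limma (0.0520), the replicate block (0.0517) and without the libraries numbered 1, 2 or 3 (0.195, 0.0648 and 0.348).

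STAT3 (chr17:40465342-40540558 in GRCh37, minus strand), the transcription factor at the end of the cascade, went the other way from JAK1. Its levels were 161.2, 173.9 and 156.0 CPM in GFP, 137.4, 147.5 and 149.3 in ID1, 138.0, 141.5 and 128.5 in ID2, 126.2, 132.5 and 134.6 in ID3 and 130.9, 119.0 and 146.1 in ID4. All 12 ID libraries lay below all 3 GFP libraries, as was the case for 6.15% of the tested genes, and the 4 ID groups overlapped with their neighbours in the order of means. Means in CPM were 163.7 ± 9.2 (SD, n = 3) in GFP, 144.7 ± 6.4 in ID1, 136.0 ± 6.8 in ID2, 132.0 ± 13.6 in ID4 and 131.1 ± 4.3 in ID3. The log2 fold change was -0.34 ± 0.07 (SE) in ID3 (edgeR adjusted p = 0.000604), -0.31 ± 0.07 in ID4 (0.00192), -0.25 ± 0.07 in ID2 (0.00587) and -0.19 ± 0.07 in ID1 (0.0434). No 2 ID groups differed (edgeR adjusted p 0.186 to 0.840 for the 6 pairs). The ID1 value lay close to the threshold and passed it in 6 of 12 other settings (edgeR adjusted p 0.0112 to 0.238), among them not without the libraries numbered 1 (0.238) or 2 (0.229). In ID4 the call was lost without those numbered 2 (log2 fold change -0.19, adjusted p = 0.148).

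**Figure D2:**
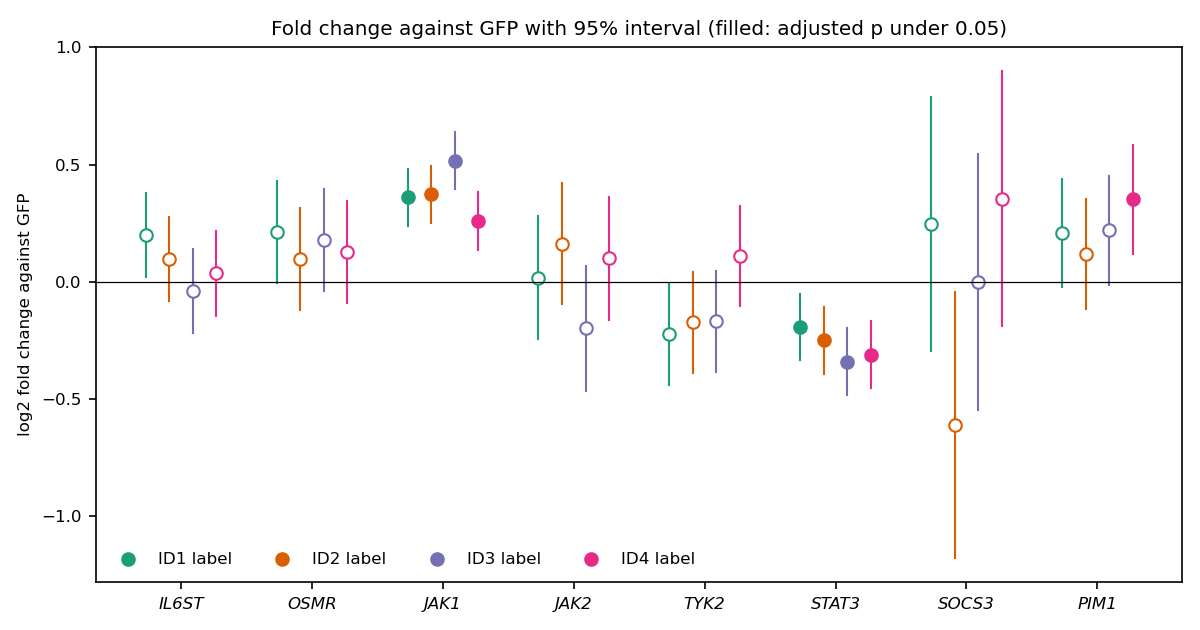
Log2 fold change against GFP (vertical axis) of the 8 tested genes in the ID1, ID2, ID3 and ID4 groups, with the 95% interval before adjustment as a line. Filled points passed edgeR's test after adjustment over all tested genes: JAK1 above 0 and STAT3 below 0 in all 4 groups, and PIM1 above 0 in ID4, while the SOCS3 intervals are the widest.

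SOCS3 (chr17:76352859-76356158 in GRCh37, minus strand), the feedback inhibitor that STAT3 induces, varied from library to library. Counts were 534, 405 and 729 in GFP, 624, 773 and 797 in ID1, 499, 530 and 180 in ID2, 606, 500 and 753 in ID3 and 793, 710 and 587 in ID4. In CPM these were 37.6, 33.6 and 61.0 in GFP, 41.2, 57.8 and 59.5 in ID1, 36.4, 36.7 and 12.4 in ID2, 42.0, 35.6 and 56.3 in ID3 and 60.8, 64.0 and 44.4 in ID4. In GFP, ID1 and ID3 the library numbered 3 was the highest, in ID2 and ID4 it was the lowest, and the GFP range took in all of ID1 and ID3. The coefficient of variation within groups was 18.6% to 48.8%, where counting alone would give 3.70% to 4.98%. The biological coefficient of variation that edgeR gave SOCS3 was 22.96%, where the trend at its level was 6.62%, and 98.8% of the tested genes had a lower one. JAK1 was at the other end with 4.88%, and 7.92% of the tested genes lay below it.

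Against GFP, the SOCS3 log2 fold change was 0.25 ± 0.26 (SE) in ID1, -0.61 ± 0.27 in ID2, -0.00 ± 0.26 in ID3 and 0.35 ± 0.26 in ID4 (edgeR adjusted p 0.570, 0.0877, 0.998 and 0.382). The 95% intervals before adjustment reached from -0.30 to 0.79 in ID1 and from -1.18 to -0.05 in ID2. Between ID groups, SOCS3 was higher in ID1 than in ID2 by 0.86 ± 0.27 on the log2 scale (edgeR adjusted p = 0.0284), and lower in ID2 than in ID4 (log2 difference -0.97 ± 0.27, edgeR adjusted p = 0.0144). The ranges do not overlap in either pair. ID2 replicate 3 weighed on both values. Without it the difference between ID1 and ID2 was 0.50 (edgeR adjusted p = 0.0730), and that between ID2 and ID4 -0.61 (0.0259). With DESeq2 neither passed (adjusted p = 0.114 and 0.0636). Without the libraries numbered 1, neither passed (edgeR adjusted p = 0.0531 and 0.0839), nor without those numbered 2 (0.0784 and 0.0577). Which libraries are counted also decides the comparison with GFP. Leaving out the 5 libraries numbered 3 gave a log2 fold change of 0.81 in ID4 (edgeR adjusted p = 1.23e-06) and 0.46 in ID1 (0.00256), and turned the ID2 value to 0.05 (0.785). Leaving out those numbered 2 gave -0.996 in ID2 (0.0459).

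The library-to-library pattern of SOCS3 was shared by other genes. After the mean of each group was subtracted, the tested genes with the highest Pearson r to SOCS3 over the 15 libraries were COPS7A, THOC3, SMIM11, TTYH3 and CAPZA2 (r = 0.99, 0.99, 0.99, 0.98 and 0.98). In all, 224 tested genes had r over 0.9 and 30 had r under -0.9. Without the ID2 group, over 12 libraries, r for the same 5 genes was 0.96 to 0.99, and 67 genes lay over 0.9, of which 49 were among the 224. Of the other members, JAK2 had the highest r (0.79), and STAT3 and TYK2 were near 0 (0.08 and -0.01). These values share the libraries and their depth and are a description. On the level itself, with group differences left in, the genes most like SOCS3 were GEM, CKLF-CMTM1 and LOC728554 (r = 0.97, 0.96 and 0.96).

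**Figure D3:**
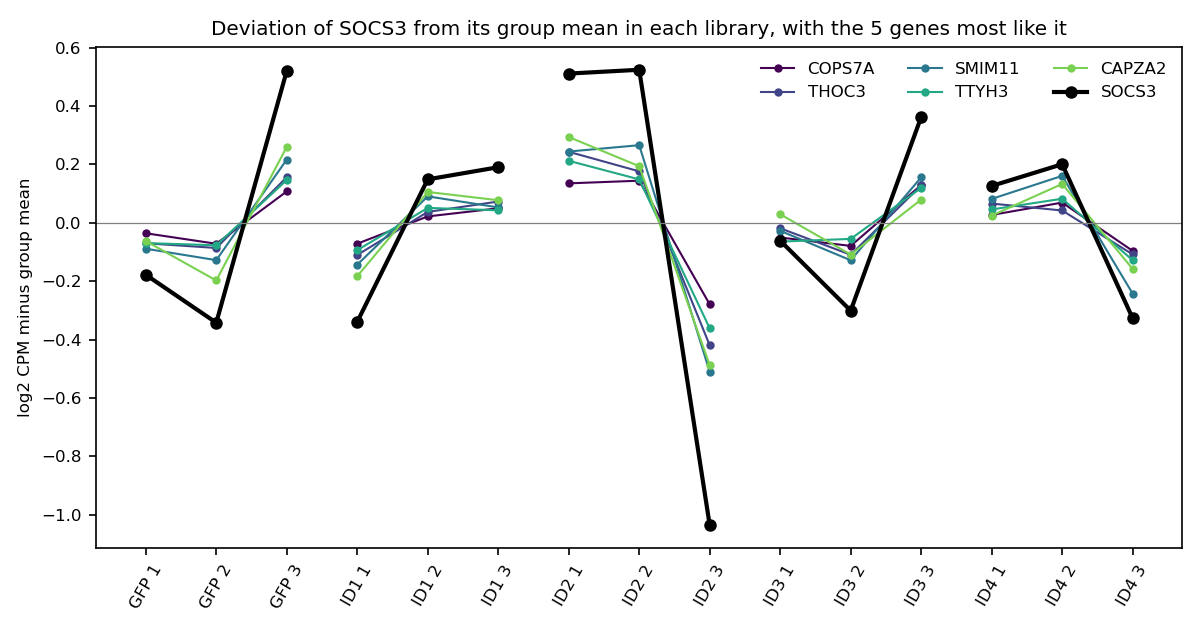
Deviation of the log2 CPM of SOCS3 (black) from the mean of its group in each of the 15 libraries, with the 5 tested genes whose deviations are most like it. SOCS3 swings more widely than the 5 genes and in the same direction in nearly every library, with the lowest point in ID2 replicate 3.

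PIM1, a kinase gene that STAT3 induces, stood at 19.2, 18.6 and 17.5 CPM in GFP, 20.2, 23.6 and 20.7 in ID1, 22.1, 20.01 and 17.2 in ID2, 19.9, 22.6 and 22.8 in ID3 and 23.9, 26.9 and 20.1 in ID4. All libraries of ID1, ID3 and ID4 lay above the GFP libraries, and ID2 overlapped with them. Of these groups only ID4 passed the test against GFP. The log2 fold change was 0.35 ± 0.11 (SE) in ID4 (edgeR adjusted p = 0.0275), 0.21 ± 0.11 in ID1 (0.207), 0.22 ± 0.11 in ID3 (0.153) and 0.12 ± 0.11 in ID2 (0.454). PIM1 in ID4 did not pass the test against ID1, ID2 or ID3 (edgeR adjusted p = 0.575, 0.151 and 0.4998). The rise in ID4 was lost without the libraries numbered 1 (log2 fold change 0.36, edgeR adjusted p = 0.134) or 2 (log2 fold change 0.27, edgeR adjusted p = 0.266). Genes most like PIM1 over the 15 libraries were UBR1, SUGCT and SDHC (r = 0.87, 0.85 and 0.85). For IL6 they were DHRS4, GMEB2 and TAF2 (r = 0.83, 0.79 and 0.79) and for LIF CXCL1, MYLIP and ZBTB44 (r = 0.89, 0.85 and 0.85), from which nothing is read because IL6 and LIF gave at most 12 and 15 counts in a library.

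Counted over the 8 tested genes, 1 was higher and 1 lower than GFP in ID1, in ID2 and in ID3, and 2 were higher and 1 lower in ID4. Over all 12870 tested genes, 12.4% were higher and 9.73% lower in ID1, 18.5% and 16.7% in ID2, 15.1% and 13.5% in ID3, and 12.1% and 9.51% in ID4, and 1 of 8 lies near these shares. The median log2 fold change of the 8 was 0.20, 0.10, -0.02 and 0.12 in ID1 to ID4, where the median of all tested genes was between -0.004 and 0.001. Between ID groups, 1 member differed between ID1 and ID2 (SOCS3, 18.6% of all tested genes), 1 between ID2 and ID4 (SOCS3, 18.6%) and 1 between ID3 and ID4 (JAK1, 11.3%). None of the 8 differed between ID1 and ID3 (9.18% of all tested genes), between ID1 and ID4 (4.87%) or between ID2 and ID3 (15%). The test over all 5 groups passed for 4 of the 8, JAK1, STAT3, TYK2 and SOCS3, and for 44.8% of all tested genes. For SOCS3 (edgeR adjusted p = 0.0442) this call held in 6 of 12 other settings and was lost, among others, with DESeq2 (0.225) and without ID2 replicate 3 (0.0503).

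The remaining genes of the pathway were followed as lists, with each gene's call from the same edgeR fit. Each count below stands beside the shares of all tested genes called higher and lower just given (12.4% and 9.73% in ID1, 18.5% and 16.7% in ID2, 15.1% and 13.5% in ID3, 12.1% and 9.51% in ID4) and beside their medians near 0. Of 9 other gp130 cytokines, 4 were tested, and 2 of these rose in each ID group and none fell, with medians of 0.45, 0.52, 0.55 and 0.71 on the log2 scale. The pair was EBI3 and IL11 in ID1, ID3 and ID4, and EBI3 and CTF1 in ID2. EBI3, a subunit of interleukin-27, was counted 2 to 6 times in a GFP library and 15 to 36 times in an ID library. Its log2 fold changes were 1.98, 2.47, 1.95 and 2.81 in ID1 to ID4, all of which passed. The deposited log2 values of EBI3 in GFP were 1.89 to 3.05, under the level above which genes were tested (3.22). It was thus tested only through its ID libraries, so its calls and its part in these medians are no separate support. IL27 itself, also on the list, gave 0 counts in every group. IL11, a gp130 cytokine, rose from 15.7 ± 2.6 CPM in GFP to 25.1 ± 1.8 in ID1, 28.8 ± 1.6 in ID3 and 31.9 ± 3.6 in ID4, and stood at 19.02 ± 1.95 in ID2 (log2 fold change 0.29, edgeR adjusted p = 0.0572). CTF1, cardiotrophin 1, named after its values were seen, rose in ID2 from 2.77 ± 0.33 to 4.61 ± 0.64 CPM (log2 fold change 0.75, edgeR adjusted p = 0.0114). Among 6 other receptor chains, 5 tested, 3 rose in ID1, 1 in ID2, 2 in ID3 and 2 in ID4, and none fell (medians 0.21, 0.02, 0.21 and 0.31). IL27RA, a chain that pairs with gp130, rose in ID1 and ID3 (0.57 and 0.47), and IL11RA, the receptor of IL11, in ID2 and ID3 (0.43 and 0.21). The remaining calls, named after their values were seen, were rises of IL6R (0.34 and 0.26) and LIFR (0.21 and 0.35) in ID1 and ID4.

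Of the other JAK, STAT and adaptor genes, 9 of 11 were tested. The counts were 2 higher and 0 lower in ID1, 5 and 3 in ID2, 2 and 0 in ID3, and 1 and 0 in ID4, with medians of -0.02, 0.20, 0.07 and -0.0009. STAT2, which carries interferon signals, rose in all 4 groups (0.31, 0.65, 0.56 and 0.32). STAT5A and STAT5B, which carry signals of growth hormone and interleukin-2, fell in ID2 by 1.00 and 0.75 on the log2 scale and passed the test in no other group. STAT5A went from 18.4 ± 1.3 CPM in GFP to 9.05 ± 1.00 in ID2. STAT5B went from 19.6 ± 2.0 to 11.5 ± 3.8 CPM, and its ID2 libraries ran from 7.68 to 15.4 CPM. Its coefficient of variation in ID2 was 33.4%, where counting alone would give 7.83%, and how far single libraries set the size of this fall was not tested. Of 15 further negative regulators, 13 tested, 1 rose and 3 fell in ID1, 1 and 3 in ID2, 4 and 2 in ID3, and 2 and 2 in ID4 (medians 0.03, -0.17, -0.08 and -0.02). SOCS6 rose in ID2, ID3 and ID4 (0.47, 0.49 and 0.61), and SOCS2, which holds back growth hormone signalling, in ID3 (0.67, edgeR adjusted p = 0.0480). The other rises, also named after their values were seen, were PIAS1 in ID1 and ID3 (0.44 and 0.46) and PTPN1 in ID3 and ID4 (0.15 and 0.18). The falls, named after their values were seen, were those of SOCS5 in ID1, ID2 and ID3 (-0.35, -0.52 and -0.34), PIAS4 in ID1, ID2 and ID4 (-0.30, -0.41 and -0.24), PIAS3 in ID1 (-0.29), SOCS1, an inhibitor of the JAK kinases, in ID2 (-0.53), and PIAS2 in ID3 and ID4 (-0.27 and -0.34).

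Genes known as STAT3 targets were called in both directions in every ID group. Of 23 listed, 21 were tested, and the counts were 4 higher and 3 lower in ID1, 4 and 9 in ID2, 3 and 2 in ID3, and 2 and 7 in ID4, with medians of 0.04, -0.16, -0.04 and -0.06, where 16.7% of all tested genes were lower in ID2 and 9.51% in ID4. VEGFA, the angiogenic growth factor, which other factors also control, fell from 378.9 ± 26.5 CPM in GFP to 165.7 ± 1.7 in ID1, 162.6 ± 19.5 in ID2, 177.5 ± 11.9 in ID3 and 199.6 ± 7.4 in ID4. NNMT, which methylates nicotinamide, rose from 8.60 ± 1.29 CPM to 16.2 ± 2.0 in ID1, 20.3 ± 1.5 in ID2 and 16.5 ± 0.8 in ID3, and stood at 9.22 ± 0.34 in ID4. The 2 C/EBP factors on the list, CEBPB and CEBPD, moved in opposite directions in all 4 groups. CEBPB rose by 0.28, 0.29, 0.28 and 0.20 on the log2 scale, and the log2 fold change of CEBPD was -0.55, -0.55, -0.39 and -0.67.

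The last list held LMO2, LDB1, ID1 and NES, which the study treats around LMO2 and STAT3, and the related adaptor LMO4. Of these 5, 1 rose and 3 fell in ID1, 1 and 1 in ID2, 1 and 2 in ID3, and 0 and 1 in ID4 (medians -0.41, -0.11, -0.09 and -0.13). In ID1 the falls were LMO2, NES (-0.41) and ID1 itself (-0.48), in ID3 LMO2 and NES (-0.31), and in ID4 ID1 (-0.30). ID1 is also the gene overexpressed in the ID1 group, and whether this assay reads its construct is not given. Its value there thus cannot be read as a fall of total ID1 RNA, although it enters the count and the median of that group. LMO2, an adaptor of transcription factor complexes, gave 43 to 63 counts in the GFP libraries and fell in ID1, ID2 and ID3 (log2 fold change -1.33, -2.29 and -1.39), with -0.85 in ID4 (edgeR adjusted p = 0.0628). In ID2 it gave 20, 12 and 3 counts (1.46, 0.831 and 0.208 CPM), the last at the detection limit. Each was then left out in turn, a choice made after seeing the data. Without ID2 replicate 1, the highest of these, the log2 fold change was -2.94, and without replicate 2 or 3 it was -2.29 or -1.83 (edgeR adjusted p 1.87e-05 to 0.00039). LMO4, a related adaptor, rose in ID1, ID2 and ID3 (0.47, 0.38 and 0.53).

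**Figure D4:**
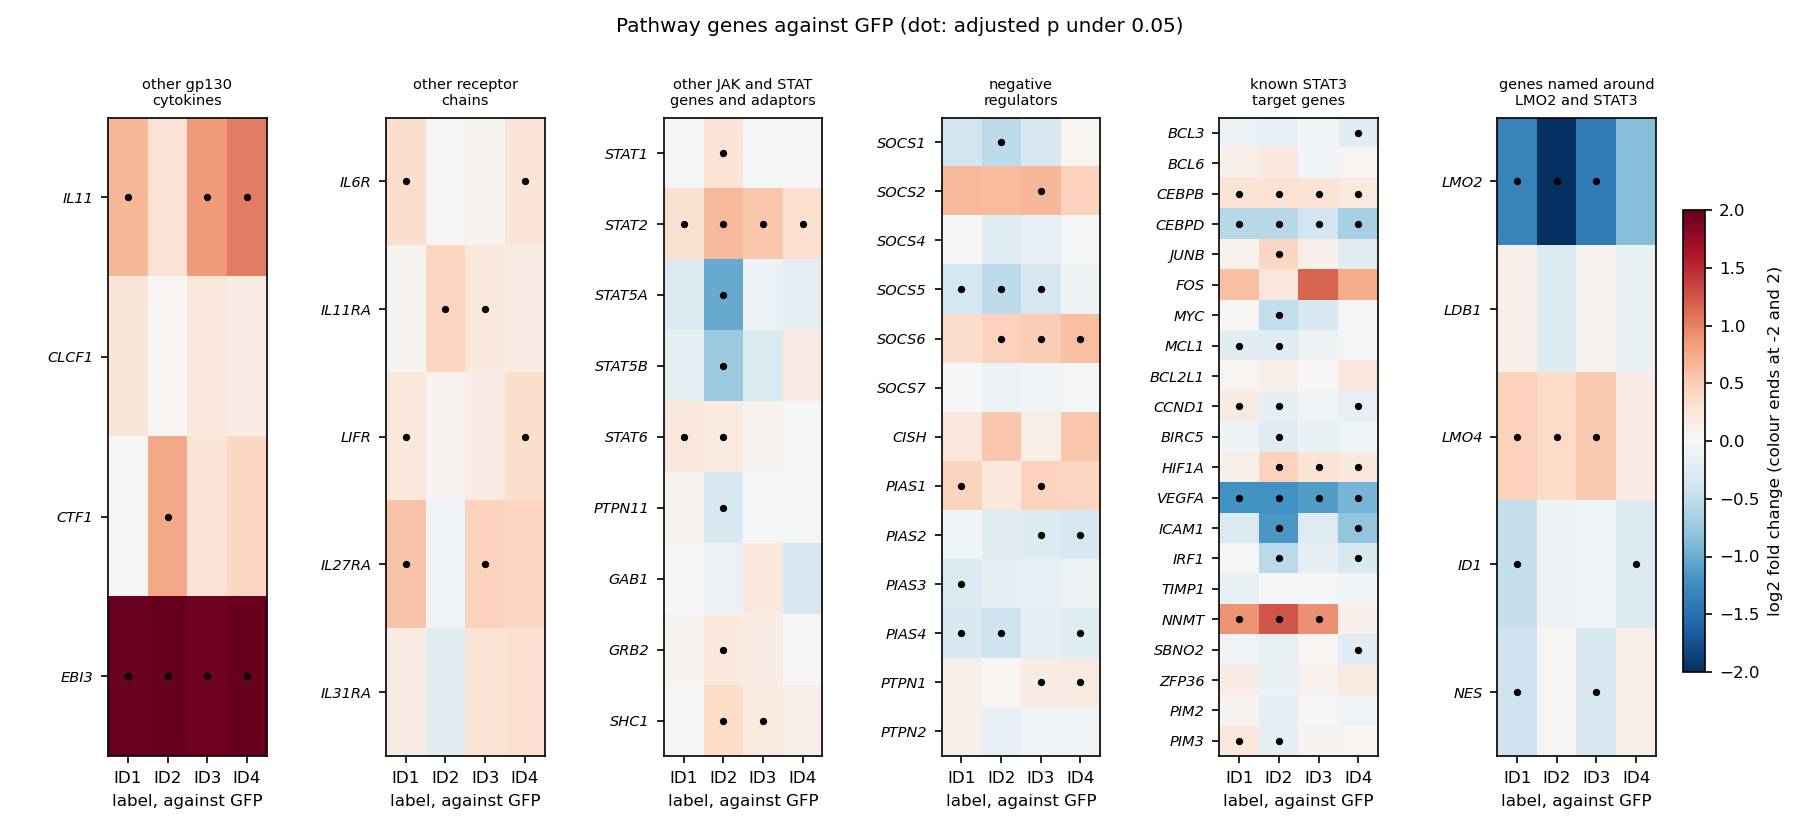
Log2 fold change against GFP of the tested genes of the 6 pathway lists (rows) in the ID1 to ID4 groups (columns), in colour from blue (lower) to red (higher), with a dot where edgeR's test passed. EBI3, which was tested only through its ID libraries, is red and VEGFA blue in all 4 columns. The column of ID2 carries the most dots among the JAK, STAT and adaptor genes.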

How the data were processed

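RNA of 15 U87MG libraries was read with the QuantSeq 3′ kit, which reads mRNA ends. The deposited table held raw read counts and log2 values per gene, both made by the authors, and the authors' processing notes name Bowtie2, BWA and hg19 (GRCh37), with versions and roles not given in the sources used here. The deposited log2 values served to choose the tested genes (mean in the upper 50%, at least 3.22, 12870 of 25737 rows) and for 1 alternative. The counts were fitted with edgeR 4.0.16 (R 4.3.3): TMM factors (0.978 to 1.03), 1 mean per group over all 15 libraries, quasi-likelihood tests, Benjamini-Hochberg adjustment over all tested genes and a threshold of 0.05. CPM values are deposited counts per 1000000 counts of the library, without TMM factors, and fold changes come from the fit. DESeq2 1.42.0, limma 3.58.1, other scalings and filters, a replicate block and left-out libraries were alternatives, and the fits were tested on simulated data. The members and lists were chosen with earlier results of these data known. From each list the text names the 2 genes with the largest called change and every gene called in all 4 comparisons with GFP. IER3 was left out because 6 rows carry its symbol. The labels do not say whether replicate numbers pair the libraries of different groups. Of 30 pairs of same-numbered libraries, 3 had deviations correlated over 0.1 (r -0.25 to 0.24). No values of differently numbered pairs stand beside these, so pairing could not be decided. Promoters came from RefSeq (GRCh38.p14), and that of SOCS3 is not reported here.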

Additional observations from a re-analysis of the deposited data

Results flagged for a closer look

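In 3 cases the change against GFP differed between 2 ID groups by the test of that difference itself. JAK1 was higher in ID3 than in ID4 by 0.26 on the log2 scale. SOCS3 was higher in ID1 than in ID2 by 0.86, and the log2 difference between ID2 and ID4 was -0.97. Against GFP itself SOCS3 passed no comparison. The JAK1 difference missed the threshold in 2 of 12 other settings, and the SOCS3 differences in 5 (ID1 and ID2) and 3 (ID2 and ID4).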

How the results depend on the processing

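Of 152 recomputed numbers of members called, 100 lay within 1.5 times the reported one, and 52 did not. The reported numbers were 2, 2, 2 and 3 in ID1 to ID4 against GFP, 1, 0, 0, 0, 1 and 1 for the pairs ID1 and ID2, ID1 and ID3, ID1 and ID4, ID2 and ID3, ID2 and ID4, and ID3 and ID4, and 4 for any difference among the 5 groups. With library totals only, 1 member was called in ID1 against GFP, 1 between ID2 and ID3 and 2 between ID2 and ID4, and with upper-quartile factors 1 in ID1 against GFP. With the upper 25% of genes it was 1 in ID1 against GFP, 1 between ID1 and ID3, 1 between ID2 and ID3 and 2 for any difference. With DESeq2 it was 0 between ID1 and ID2, 1 between ID2 and ID3, 0 between ID2 and ID4 and 2 for any difference. With edgeR's own filter it was 2 between ID1 and ID2 and 1 between ID2 and ID3. Without a filter on low values it was 2 between ID1 and ID2, 1 between ID1 and ID3, 3 between ID2 and ID3 and 2 between ID3 and ID4. That fit estimated no gene-specific spread (infinite prior degrees of freedom, against 11.3 in the reported fit), and in it SOCS3 passed against GFP in ID1, ID2 and ID4 (edgeR adjusted p = 0.0256, 3.84e-11 and 0.000294). With each pair of groups fitted alone it was 0 between ID1 and ID2, 1 between ID1 and ID3 and 1 between ID1 and ID4. The replicate block gave 1 in ID1 against GFP, 0 between ID1 and ID2 and 2 for any difference. Whether the numbers pair the libraries is not stated in the labels. The rule of the methods, over 2-fold with an unadjusted p under 0.05, called 0 in all 4 comparisons with GFP, 0 between ID1 and ID2, ID2 and ID4, and ID3 and ID4, and 1 between ID2 and ID3.

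Leaving out the libraries of 1 number in all groups, or ID2 replicate 3 alone (chosen after seeing the data), gave 1 to 3 in ID1, 2 to 3 in ID2, 2 in ID3 and 1 to 4 in ID4 against GFP, 0 to 3 between ID3 and ID4, 0 to 1 for each other pair of ID groups, and 1 to 5 for any difference. The pathway lists depended on the setting as well. Of their recomputed numbers of genes called against GFP, 243 lay within 1.5 times the reported one, and 45 did not.

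No call of a member changed direction. Among member values that had not passed the test, 14 changed sign. The SOCS3 value in ID3 was 0.020 with library totals, 0.015 with upper-quartile factors, 0.019 with the upper 25% of genes, 0.025 with limma and 0.0016 without a filter. When libraries were left out, it ran from -0.066 to 0.10, and the SOCS3 value in ID2 from -0.996 to 0.049, JAK2 in ID1 from -0.039 to 0.094, JAK2 in ID2 from -0.075 to 0.386, IL6ST in ID3 from -0.118 to 0.020, IL6ST in ID4 from -0.017 to 0.071, OSMR in ID2 from -0.083 to 0.221 and OSMR in ID4 from -0.012 to 0.208. The cause of these changes was not tested. Depth limits IL6 and LIF most, which lie near 3 counts in several libraries, and also EBI3 (2 to 6 counts in a GFP library), LMO2 (3 to 20 in ID2) and FOS (6 to 33).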
